A study of Mus musculus with 60 samples.

Results

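The 37 homeobox (Hox) genes and the glycine transporter gene Slc6a5 described here were measured with Affymetrix Mouse Gene 1.0 ST arrays in the brains of mouse fetuses. They were the genes of a list of 39 that had a row of the deposited value table with that 1 gene symbol, and each of these 38 had 1 such row among 21789 rows with a single symbol. Hoxb8, also on the list, was not found in this way, as its row also carries the symbol of Hoxb7. The genes lie in the Hox clusters A (10 genes, chromosome 6), B (9, chromosome 11), C (9, chromosome 15) and D (9, chromosome 2), and Slc6a5 lies on chromosome 7.

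Hox genes encode DNA-binding proteins that give cells their position along the head to tail axis. Within a cluster the genes are numbered by their order, and genes of the same number in different clusters are paralogs. Genes of low number are active from the hindbrain backwards, and those of high number only further back, in the spinal cord, trunk and limbs. The forebrain and midbrain lie ahead of all of them. Slc6a5 encodes the transporter that returns glycine to inhibitory neurons, which are found mostly in the brainstem and spinal cord.

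Pregnant mice of B6.129 background were given chlorpyrifos oxon (CPO), which the body makes from the insecticide chlorpyrifos, on gestational days 6 to 17. Brains were taken on day 18, and the RNA of all fetuses of 1 dam was combined for 1 array, so the replicate is the dam. The 12 labelled groups of 5 arrays had 4 genotypes: wild type (WT), the knockout of PON1 (KO), and a transgene of human PON1 in either form, tgHuPON1Q192 (Q-tg) or tgHuPON1R192 (R-tg), each at dose 0 and at a pair of CPO doses. These doses were 0.75 with 0.85 mg/kg/d, and for KO 0.50 with 0.75 mg/kg/d. The 5 dams of a group were a random draw, made once dams of unusual acetylcholinesterase activity in the brain had been left out. PON1 is the blood enzyme that breaks CPO down. The promoter of the transgenes, and whether they lie on the knockout, is not given in the sources used here. The series compared these groups to ask how PON1 status alters the effect of CPO before birth.

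Values are log2 signals, so that a difference of 1 unit is a ratio of 2. Before any comparison, the mouse Pon1 signal was set against the labels. It was at most 5.67 on 15 arrays and at least 9.72 on 45, and 10 arrays went against their label: 5 of the 15 labelled KO were high, and 5 of the 45 others were low. For Q-tg and R-tg this count assumes that the transgenes do not lie on the knockout, which is not known here. Exchanges among the labels WT, Q-tg and R-tg, or among doses, would not be seen by this rule. Named differences between a CPO dose and dose 0, and counts of associated genes, are also given without these 10 arrays where they moved by over 1.5 times or changed sign. Array medians over the rows with 1 symbol ran from 7.66 to 7.81, and correlations between arrays from 0.987 to 0.998. No scan date or batch is given in the labels. Neuronal markers were bright on every array, with a mean signal of the 5 genes between 11.47 and 11.61. A gene is called dim here where its mean signal lay below 6.54, the 95th percentile of 1035 olfactory receptor rows, genes that are silent in nearly all brain cells.

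The promoters of 3 genes that carry the main pattern are shown first, as RefSeq gives them for GRCm38.p6. Each is the 250 bases before the annotated start, written 5′ to 3′ on the strand of the gene. Capitals mark the letters TGATNNAT on either strand, a form of the joint site of Hox proteins and their PBX partners. Hoxa5 and Hoxa2 lie on the minus strand (chr6:52204588-52204837 and chr6:52164832-52165081), and Slc6a5 on the plus strand (chr7:49910049-49910298).
Hoxa5: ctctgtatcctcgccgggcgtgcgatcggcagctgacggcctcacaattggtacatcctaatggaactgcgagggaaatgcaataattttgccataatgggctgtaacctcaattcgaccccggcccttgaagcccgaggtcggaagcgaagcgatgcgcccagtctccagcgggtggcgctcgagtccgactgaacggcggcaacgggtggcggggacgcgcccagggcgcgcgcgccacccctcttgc
Hoxa2: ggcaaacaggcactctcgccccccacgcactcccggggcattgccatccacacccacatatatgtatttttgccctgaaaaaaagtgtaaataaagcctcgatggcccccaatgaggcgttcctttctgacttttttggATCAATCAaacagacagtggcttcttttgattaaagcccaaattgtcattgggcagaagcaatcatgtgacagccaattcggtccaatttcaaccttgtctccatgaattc
Slc6a5: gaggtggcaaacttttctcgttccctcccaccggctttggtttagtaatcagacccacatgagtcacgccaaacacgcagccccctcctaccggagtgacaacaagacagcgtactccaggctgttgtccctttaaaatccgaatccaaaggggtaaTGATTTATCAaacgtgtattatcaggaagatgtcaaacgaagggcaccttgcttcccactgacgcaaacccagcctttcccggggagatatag
The Hoxa5 window held 0 matches, that of Hoxa2 held 1, and that of Slc6a5 held 2 that overlap on opposite strands. Of the 22 members with a promoter in the table, 4 (18.2%) held a match, Hoxa2, Hoxb1, Hoxd11 and Slc6a5, against 8.81% of 27025 genes. A match is a run of letters and was not shown to be a bound site. The 3 windows differ in base composition, with 63.6% G and C for Hoxa5, 46.4% for Hoxa2 and 50.4% for Slc6a5.

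Most Hox genes had signals in the range of silent genes. Of all 21789 rows, 15611 had a mean above the dim level. Of the 38 members, 12 had a mean above it and 26 below it. Those above were Slc6a5, Hoxa4 to Hoxa7 in cluster A, Hoxb1, Hoxb2, Hoxb3, Hoxb5, Hoxb7 and Hoxb9 in cluster B, and Hoxd3 in cluster D, with 0 of 9 in cluster C. By paralog number, they were 6 of the 12 genes of numbers 2 to 5, 1 of 3 of number 6, 3 of 20 of numbers 7 to 13, and 1 of 2 of number 1. Slc6a5, Hoxa4, Hoxb1, Hoxb3, Hoxb9 and Hoxd3 exceeded the dim level on all 60 arrays, 17 members did so on some, and 15 on 0. Levels of different genes come from different probes and were not ranked against each other. A dim mean does not show that a gene was silent, and dim Hoxa2 followed Hoxa5 with r = 0.87, as given below.

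**Figure D1:**
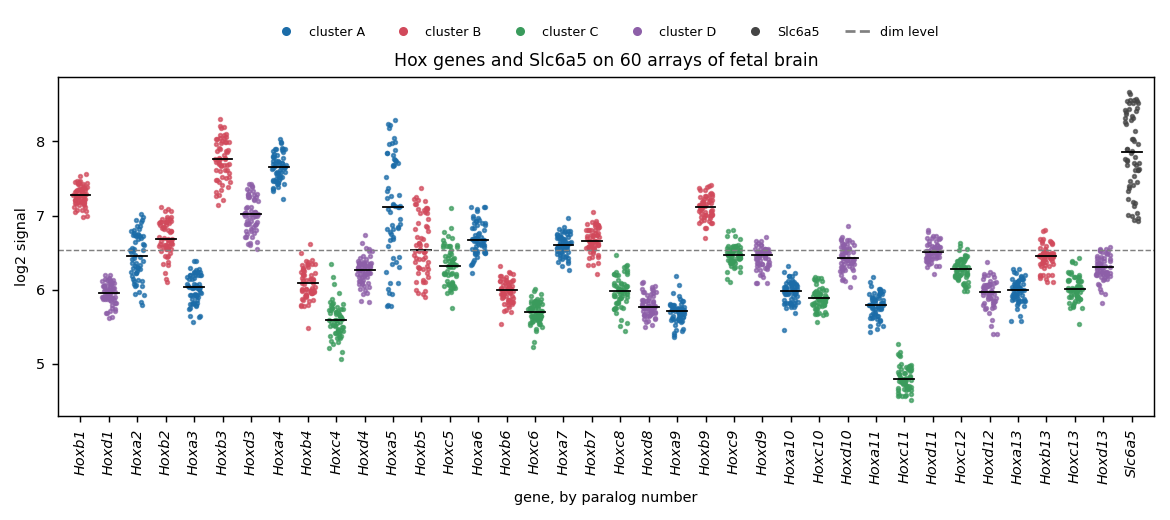
Log2 signal of each of 37 Hox genes, ordered by paralog number and coloured by cluster, and of Slc6a5 on the 60 arrays (points; the bar is the median and the dashed line the dim level of 6.54). Hoxa5 and Slc6a5 spread most, over 2.51 and 1.73 log2 units, and genes of numbers 7 to 13 spread over at most 1.03.

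Hoxa5, Slc6a5 and Hoxb5 were among the rows of the table that differed most between arrays. Hoxa5, which acts in the lower hindbrain and neck region, ran from 5.78 to 8.28 with a median of 7.12, a 5.69-fold span. Its standard deviation within labelled groups was 0.70, rank 8 among 21789 rows. Slc6a5 ran from 6.93 to 8.66 with a median of 7.85 (SD within groups 0.50, rank 13). Hoxb5, the cluster B paralog of Hoxa5, ran from 5.91 to 7.37 with a median of 6.54 (0.40, rank 32).

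Hoxa2, which patterns the front of the hindbrain, ran from 5.80 to 7.02 (SD within groups 0.30, rank 80), and Hoxb3 from 7.14 to 8.30 (0.27, rank 134). Next in order were Hoxc5 (0.26), Hoxd3 (0.24), Hoxc4 (0.23), Hoxb2 (0.22) and Hoxa6 (0.21), at ranks 176, 276, 353, 380 and 508. All 38 members exceeded the median row of the table in this standard deviation, with a median of 0.164 over members and 0.108 over all rows. As 26 of the 38 were dim and rows of like signal were not compared, this is not shown to be particular to Hox genes. The widest gap between neighbouring sorted Hoxa5 values was 0.151, so the signals filled their range without a wide break. Gaps in a single gene cannot show whether groups of arrays with overlapping signals are present.

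That range was found inside labelled groups. Hoxa5 in WT was 6.75, 6.87, 6.83, 7.68 and 8.18 at dose 0. At 0.75 mg/kg/d the values were 5.78, 7.27, 7.96, 8.28 and 7.68, and at 0.85 they were 7.51, 7.09, 8.23, 7.26 and 6.09. The lowest and the highest Hoxa5 signal of the whole series, replicates 1 and 4, thus stood side by side in WT at 0.75. In KO the signal was 7.37, 6.95, 6.83, 7.04 and 7.11 at dose 0, the tightest group with a range of 0.55. It was 6.34, 6.24, 7.15, 5.79 and 6.78 at 0.50 and 8.22, 6.44, 5.78, 7.13 and 7.67 at 0.75 mg/kg/d. The middle dose of KO held the lowest group mean, 6.46 ± 0.52 (SD, n = 5).

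Q-tg brains had Hoxa5 signals of 6.71, 6.43, 6.37, 7.24 and 6.81 at dose 0. At 0.75 mg/kg/d they were 7.12, 7.73, 6.85, 7.88 and 7.97, the highest group mean at 7.51 ± 0.50 (SD, n = 5). At 0.85 they were 5.94, 7.84, 7.33, 7.74 and 6.09, with replicates 1 and 5 far below the other 3. In R-tg the values were 7.13, 7.14, 7.81, 7.76 and 6.88 at dose 0. At 0.75 they were 8.05, 6.68, 6.59, 6.01 and 5.96, with replicate 1 alone above the whole dose 0 group, and at 0.85 they were 6.68, 7.70, 7.84, 7.99 and 6.31. Group means spanned 1.05 log2 units, and the median range inside a group was 1.56. Means of 5 arrays vary less than single arrays, so these ranges are not like measures. The labelled groups took 19.9% of the variance of Hoxa5 and 25.2% of that of Slc6a5, against a median of 18.3% over all rows.

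**Figure D2:**
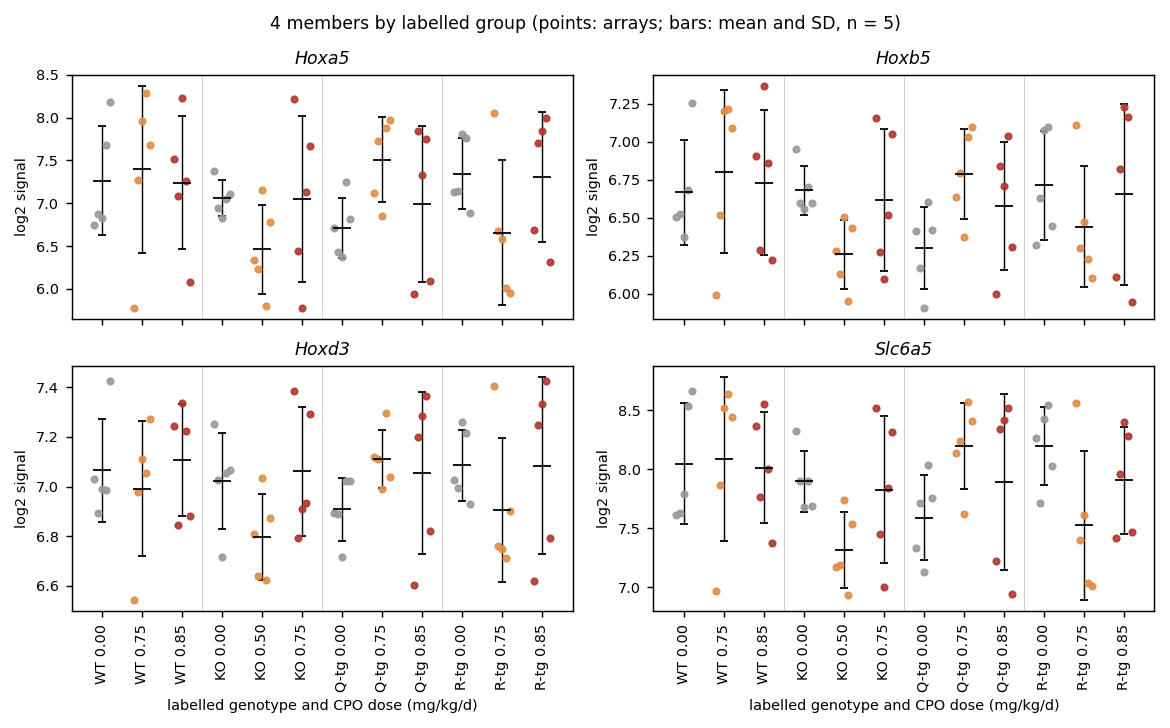
Log2 signal of Hoxa5, Hoxb5, Hoxd3 and Slc6a5 by labelled genotype and CPO dose; points are arrays, and bars the mean and SD of 5 arrays. Arrays high for Hoxa5 lie high in the other panels too (r = 0.93, 0.85 and 0.95), and arrays of a group lie up to 2.51 log2 units apart for Hoxa5.

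The brains high in Hoxa5 were high in the other Hox genes of numbers 2 to 5 and in Slc6a5. Each of the other 37 members was set against Hoxa5 in limma with the 12 groups as terms, adjusted over 21788 rows. Of them 13 passed, all of them higher where Hoxa5 was higher, where 3.89% of all rows passed (1.3% higher and 2.59% lower). They were 10 of 11 genes of numbers 2 to 5, 2 of 3 of number 6, and Slc6a5. Of the 20 genes of numbers 7 to 13, 0 passed (adjusted p 0.273 to 1), and of the 2 of number 1, Hoxb1 and Hoxd1, 0 passed (adjusted p = 0.682 and 0.845 in limma). As members and Hoxa5 were chosen with earlier results of these data known, these counts are descriptions.

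Slc6a5 followed Hoxa5 more closely than any other row of the table. Its Pearson r with group means removed was 0.95 and its Spearman rho 0.94, each with a permutation p of 1e-05, the smallest that 100000 permutations within groups can give. It rose by 0.68 log2 units per unit of Hoxa5 (SE 0.03, limma adjusted p = 3.75e-22). The members, Slc6a5 included, and Hoxa5 were chosen with earlier results of these data known. This rank and these p-values are therefore descriptions and not independent support. Without the 2 arrays farthest from the median of Hoxa5, WT at 0.75 replicate 1 and KO at 0.75 replicate 3, r was 0.93, and without the 10 arrays against their Pon1 label it was 0.94. Within labelled genotypes of 15 arrays each, r was 0.97 in WT, 0.97 in KO, 0.91 in Q-tg and 0.93 in R-tg. It was 0.86 over the 20 arrays at dose 0 and 0.97 over the 40 CPO arrays.

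Hoxb5 was at rank 3 of all rows, with r = 0.93, rho = 0.94 and a permutation p of 1e-05 for each, and rose by 0.53 per unit of Hoxa5 (SE 0.03, limma adjusted p = 1.38e-20). Hoxb3 (r = 0.88), Hoxa2 (0.87) and Hoxd3 (0.85) were at ranks 6, 7 and 11, with slopes of 0.34, 0.37 and 0.29. Hoxa6 (0.81), Hoxb2 (0.80), Hoxa3 (0.73), Hoxb4 (0.70), Hoxc5 (0.69), Hoxa4 (0.64) and Hoxc4 (0.59) followed, all with a permutation p of 1e-05. Every slope other than that of Slc6a5 and Hoxb5 was at most 0.37.

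Hoxb6 and Hoxd4 lay at the edge. Hoxb6 had r = 0.45 and a limma adjusted p = 0.0332, which rose above 0.05 in 7 of 60 fits that left out 1 array, to at most 0.0815. Without the 10 arrays against their Pon1 label it was 0.363. The 7 arrays were KO at 0.50 replicate 4, KO at 0.75 replicate 3, WT at 0 replicate 5, WT at 0.85 replicates 3 and 5, and Q-tg at 0.85 replicates 1 and 4. Hoxd4, the 1 gene of numbers 2 to 5 that did not pass, had r = 0.38 and an adjusted p = 0.0851 in limma. It passed without KO at 0.75 replicate 1 (0.0487) or R-tg at 0.75 replicate 4 (0.0428). The other 12 passed in each of the 60 such fits, and without the 10 arrays.

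Hox genes of numbers 2 to 5 were correlated with their paralogs and with their cluster neighbours alike. With group means removed, the median r was 0.76 over 13 pairs of equal number and 0.73 over 53 pairs of unequal number. It was 0.72 over 14 pairs in the same cluster and 0.74 over 52 pairs in different clusters. The closest paralogs were Hoxa5 and Hoxb5 (0.93), and the number with the lowest median was 4 (0.66 over 6 pairs). These are descriptions over the same 60 arrays, and pairs that share a gene are not independent. In 6 pairs the RefSeq spans of the genes overlap, namely Hoxa3 with Hoxa4, Hoxa5 and Hoxa6, Hoxb3 with Hoxb4, Hoxd3 with Hoxd4, and Hoxd10 with Hoxd11. Their r ran from 0.27 to 0.79, and how far their probes can be told apart was not tested.

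**Figure D3:**
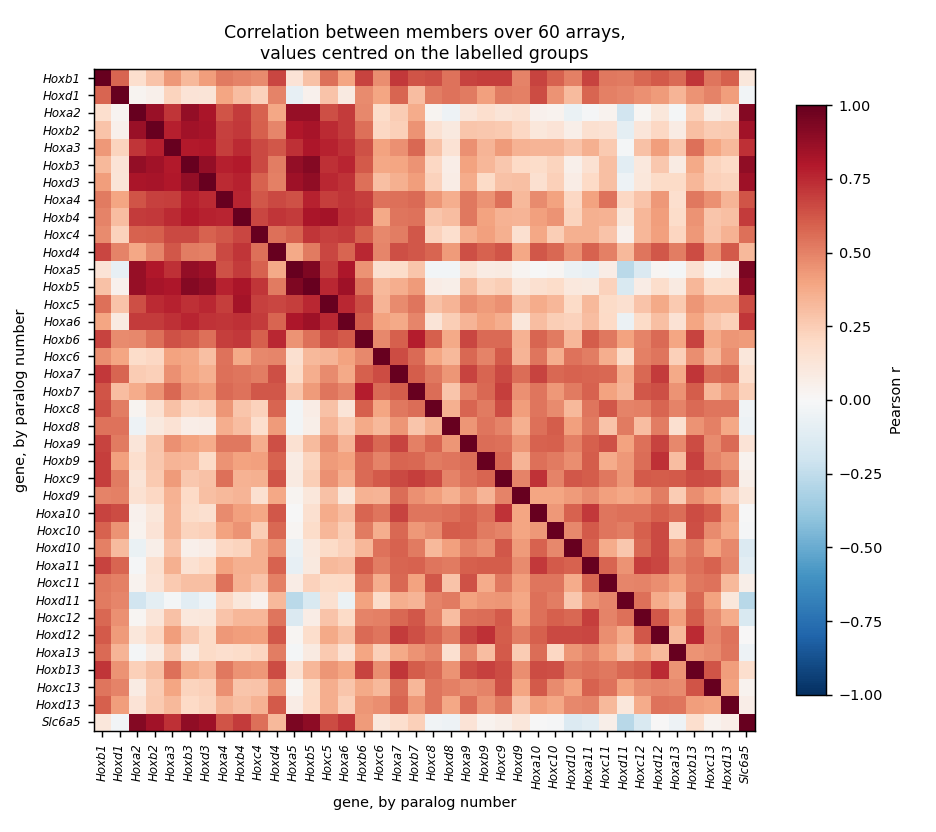
Pearson correlation between all pairs of the 38 members over 60 arrays, values centred on the labelled groups, genes ordered by paralog number on both axes. Numbers 2 to 5 form a block with a median of 0.73 to 0.76 that takes in Hoxa6 and Slc6a5, and numbers 7 to 13 form another with a median of 0.48 to 0.53.

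Hox genes of numbers 7 to 13, which belong to trunk, limb and hind end, were correlated among themselves and less so with those of numbers 2 to 5. Their median r was 0.48 over 21 pairs of equal number and 0.53 over 169 of unequal number, but 0.28 with genes of numbers 2 to 5 (240 pairs). All 20 followed the lower quartile of the array, the signal at the 25th percentile of its rows (r 0.55 to 0.83, median 0.71). Rows below the dim level did so in general, with a median of 0.55 over 6178 rows. Genes of numbers 2 to 5 ran from 0.06 to 0.78 with a median of 0.40, and 6 of 12 exceeded 0.4, Hoxd4 (0.78), Hoxa4 (0.57), Hoxb4 (0.55), Hoxc5 (0.52), Hoxa3 (0.52) and Hoxc4 (0.48). Hoxa5 and Slc6a5 had the lowest values of the members, both with r = 0.06. Once the lower quartile had been regressed out, the median r of numbers 7 to 13 was 0.003 for equal and 0.02 for unequal number. For numbers 2 to 5 it stayed at 0.75 and 0.72.

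Single arrays showed this too. WT at 0.85 replicate 4, whose lower quartile of 6.52 was the highest of all, had the highest signal of 8 of these 20 genes. R-tg at 0.75 replicate 4, at rank 4 of 60, had that of 5. KO at 0.75 replicate 1, R-tg at 0 replicate 1 and WT at 0.75 replicate 3, the 3 arrays with the lowest quartiles (6.23, 6.20 and 6.19), had the lowest signal of 4 genes each. Hoxb1 (r = 0.81) and Hoxd1 (0.66) followed the lower quartile too, although number 1 is the front end of the series.

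**Figure D4:**
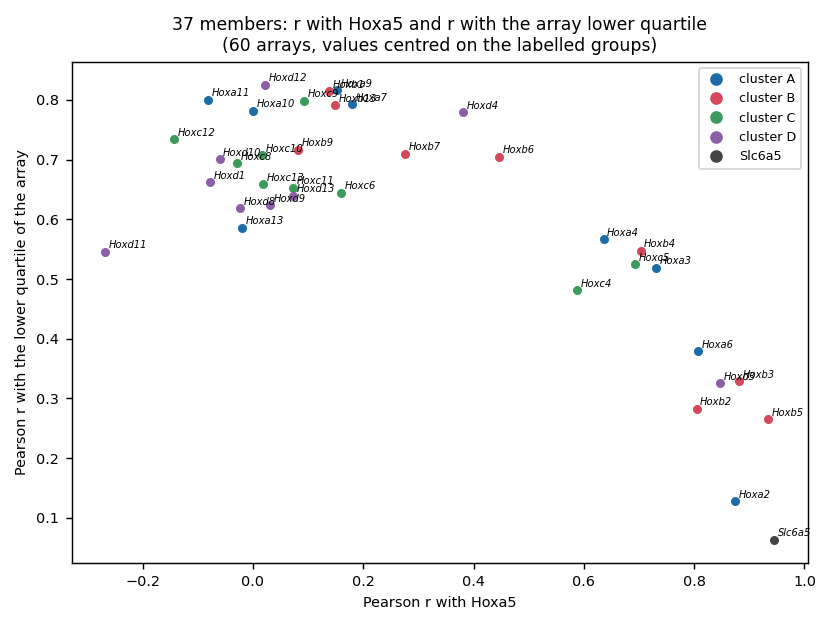
Pearson r of each of 37 members with Hoxa5 (horizontal) and with the lower quartile of the array (vertical), over 60 arrays with group means removed. Genes of numbers 7 to 13 lie at the upper left, with r of at most 0.28 with Hoxa5, and Slc6a5, Hoxb5 and Hoxa2 at the lower right.

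The genes outside the family that followed Hoxa5 most closely were listed by r with group means removed. The 15 of highest r were Lamp5 (0.94), the synuclein gene Sncg (0.91), Mab21l2 (0.89), Glra1 (0.86), Nefm (0.86), Sv2c (0.85), Prph (0.84), Pla2g7 (0.83), Pax8 (0.82), Nefh (0.82), Nefl (0.81), Sparcl1 (0.81), Timp4 (0.79), Tfap2a (0.79) and Meis1 (0.79). Nefl, Nefm, Nefh and Prph encode the subunits of neurofilaments and peripherin, the intermediate filaments of axons. Glra1 encodes a glycine receptor subunit of brainstem and spinal cord, and Meis1 a DNA-binding partner of Hox proteins. The 5 lowest were Mpped1 (-0.73), Fezf2 (-0.72), Tmem74 (-0.71), Sla (-0.70) and Cdh2 (-0.69). Fezf2 is a transcription factor of the deep layers of cerebral cortex. All 20 passed in limma (adjusted p at most 0.00201), which is no separate support, as they were picked by this association on the same arrays. They also passed without the 10 arrays against their Pon1 label, when 143 of all rows passed. That fit used the remaining arrays of the same set.

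Marker lists of brain regions were read beside Hoxa5 in the same fit, where 1.3% of all rows passed as higher and 2.59% as lower. Of 11 measured forebrain genes, 9 were lower where Hoxa5 was higher and 0 higher, among them Fezf2, Dlx1 (r = -0.65), Tbr1 (-0.61) and Lhx2 (-0.61). Their mean ran from 9.03 to 9.38 over arrays and had r = -0.71 with Hoxa5. Of 7 cerebellum genes 4 were higher, Atoh1 (0.66), Zic1 (0.61), Zic2 (0.45) and Skor2 (0.45). Of 15 genes of hindbrain and spinal cord 2 were higher, the acetylcholine carrier Slc18a3 (0.67) and Lhx1 (0.54). The other 13 did not pass, among them Dbh (0.42) and Isl1 (-0.38), and the median r of the 15 was 0.21. Midbrain markers passed in 0 of 7. Without the 10 arrays against their Pon1 label, 143 of all rows passed in place of 848. Among the lists, 3 forebrain genes then passed, Emx2, Dlx1 and Fezf2. So did 2 cerebellum genes, Atoh1 and Zic1, and 2 of hindbrain and spinal cord, Slc18a3 and Dbh. The median r over all rows was -0.04. In a pooled brain sample, fewer cells of a type and less RNA per cell cannot be told apart, and the part of the dissection in this pattern was not tested.

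Markers of choroid plexus and of tissues outside the brain were read in the same way. The choroid plexus genes Kcnj13 (r = 0.51), Ttr (0.49) and Clic6 (0.46) were higher with Hoxa5, 3 of 5 in all, and their list mean ran from 8.76 to 9.26. Of 4 genes of peripheral ganglia and neural crest 1 was higher, Prrxl1 (0.43). Skeletal muscle (0 of 8, list mean 6.68 to 7.18), bone and cartilage (0 of 7, 6.16 to 7.04), pituitary (0 of 6, 5.95 to 7.18) and blood (0 of 2, 7.37 to 7.89) did not pass, nor did oligodendrocytes (0 of 4) or neurons in general (0 of 5). Without the 10 arrays 0 of the genes on these lists passed, choroid plexus and ganglia included. Calls over all rows fell in that fit too, from 848 to 143, so the loss is not shown to be particular to these lists. The part of choroid plexus in the result was not tested.

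Genes that act with or on Hox genes, neighbours of the clusters and genes of glycine transmission were read in the same fit, where 3.89% of all rows passed. Of 8 Hox cofactors of the PBX, MEIS and PKNOX families, Meis1 was higher and Pknox2 lower (r = -0.46), and Pbx2 (-0.28) and Pknox1 (-0.24) did not pass. Of 25 upstream regulators, Gbx2 (0.46), which sets the border of midbrain and hindbrain, and Cyp26b1 (0.44), which degrades retinoic acid, were higher. Aldh1a1 (-0.51), which makes retinoic acid, was lower, and Rxrg (-0.38) did not pass. Of 23 noncoding genes and neighbours of the clusters, Skap2 beside cluster A was higher (0.47) and Calcoco1 lower (-0.48), while Hoxaas2 (0.41) and Mir10a (-0.24) did not pass. Of 13 genes of glycine transmission, Glra1 and the glial glycine transporter gene Slc6a9 (0.55) were higher, and Glrb (0.38) and Glra3 (0.24) did not pass. The mean of the glycine list had r = 0.57 with Hoxa5. List means had r = 0.15 for the cofactors, -0.13 for the upstream regulators and 0.13 for the noncoding genes and neighbours. Without the 10 arrays Meis1, Aldh1a1, Skap2 and Glra1 passed among these 4 lists, when 143 of all rows passed.

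No Hox gene, nor Slc6a5, passed a test between labelled groups. limma called 0 of 38 in the F test over the 12 groups and in each of the 21 contrasts, where 0% of rows passed in 20 contrasts and 0.00459% in the other. At an unadjusted p under 0.05 the F test held 3 of 38, Hoxa7, Hoxc8 and Hoxd13, where 4.84% of rows passed. Neither leaving out the 10 arrays against their Pon1 label nor array weights gave a call among members. The differences given for single contrasts are therefore ones that did not pass, and the contrasts of a genotype share their dose 0 arrays.

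In WT at 0.75 mg/kg/d, 19 of 20 genes of numbers 7 to 13 lay below dose 0, with a median of -0.15. Of all rows, 52.2% lay above dose 0. Hoxc8, of the thoracic region, was 6.25, 5.82, 6.09, 5.91 and 6.08 at dose 0 and 5.76, 6.01, 5.44, 5.55 and 5.59 at 0.75, where 4 of 5 arrays lay below the whole dose 0 group. The difference was -0.36 (SE 0.12, limma adjusted p = 0.456), or -0.41 without the arrays against their Pon1 label, beside -0.27 for Hoxd8, -0.24 for Hoxa7 and -0.22 for Hoxa11. At an unadjusted p under 0.05, 5 of 38 members were lower and 0 higher, where 5.93% of rows were lower and 4.25% higher. The lower quartile was 6.28 ± 0.06 in these 5 arrays against 6.36 ± 0.05 at dose 0 (SD), and with it as covariate the differences were -0.22 for Hoxc8, -0.18 for Hoxd8, -0.13 for Hoxa7 and -0.09 for Hoxa11. At 0.85 the smallest p were those of Hoxb1 (0.13), Hoxc10 (0.15), Hoxd9 (-0.12) and Hoxd4 (0.15), with 0 of 38 at an unadjusted p under 0.05 and 2.15% of rows. Without the arrays against their Pon1 label these were 0.047, 0.10, -0.22 and 0.099, and with the lower quartile as covariate Hoxb1 was 0.084 and Hoxd4 0.086.

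In KO at 0.50 mg/kg/d, 11 of 12 genes of numbers 2 to 5 lay below dose 0, with a median of -0.20. Of all rows, 50.2% lay above dose 0. Slc6a5 was 8.32, 7.90, 7.68, 7.90 and 7.68 at dose 0 and 7.17, 7.19, 7.74, 6.93 and 7.53 at 0.50, and the groups overlapped. Its difference was -0.58 (SE 0.30), and those of Hoxa2, Hoxb6 and Hoxa10 were -0.36, -0.18 and -0.19 (limma adjusted p = 1). Without the arrays against their Pon1 label they were -0.44 for Slc6a5 and -0.18 for Hoxa2. At an unadjusted p under 0.05, 2 of 38 passed, as did 1.84% of rows. At 0.75 the named values were small, 0.12 for Hoxd13, 0.16 for Hoxb4, 0.09 for Hoxb1 and -0.11 for Hoxa10, with 0 of 38 and 2.9% of rows. Without the arrays against their label these were 0.046, -0.032, 0.18 and -0.011, so Hoxb4 changed sign, and with array weights Hoxb4 was 0.097 and Hoxa10 -0.054.

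In Q-tg at 0.75 mg/kg/d, 11 of 12 genes of numbers 2 to 5 lay above dose 0, with a median of 0.21. Of all rows, 52.5% lay above dose 0. Hoxa2 was 6.24, 6.29, 5.97, 6.53 and 6.36 at dose 0 and 6.74, 6.75, 6.52, 6.72 and 6.81 at 0.75, so that only the lowest of the dosed arrays lay inside the range of dose 0. The differences were 0.43 for Hoxa2 (SE 0.18), 0.48 for Hoxb5, 0.61 for Slc6a5 and 0.80 for Hoxa5 (limma adjusted p = 1). Without the arrays against their Pon1 label they were 0.35, 0.38, 0.49 and 0.71. At an unadjusted p under 0.05, 2 of 38 passed, as did 2.35% of rows. At 0.85 the median of numbers 2 to 5 was 0.13, and the named values were -0.20 for Hoxa13, 0.15 for Hoxc13, 0.28 for Hoxb5 and 0.15 for Hoxd3 (1 of 38, 3.86% of rows). Without the arrays against their Pon1 label they were -0.18, 0.086, 0.32 and 0.21, and with array weights Hoxc13 was 0.095.

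In R-tg at 0.75 mg/kg/d, 10 of 12 genes of numbers 2 to 5 lay below dose 0, with a median of -0.17. Of all rows, 41% lay above dose 0. Slc6a5 was 8.26, 7.71, 8.43, 8.54 and 8.03 at dose 0 and 8.56, 7.40, 7.61, 7.03 and 7.01 at 0.75. Of the dosed arrays, 4 lay below the whole dose 0 group and replicate 1 above it. The difference was -0.67 (SE 0.30, limma adjusted p = 0.898). Hoxd13, a gene of digits and hind end, had the smallest p of all member contrasts, with 5.82, 6.26, 6.01, 6.35 and 6.13 at dose 0 and 6.52, 6.35, 6.43, 6.54 and 6.41 at 0.75. These groups did not overlap, and the difference was 0.34 (SE 0.09, limma adjusted p = 0.898), beside 0.20 for Hoxc12 and 0.24 for Hoxd12. Without the arrays against their label Slc6a5 differed by -0.69 and Hoxd13 by 0.34, and with array weights Slc6a5 differed by -0.41 and Hoxd13 by 0.26. The Hoxd13 mean of R-tg at dose 0, 6.11, was the lowest of the 12 groups, with replicate 1 lowest in it at 5.82. The Hoxd12 value was 0.13 without R-tg at 0 replicate 1, whose signal of 5.41 was the lowest of its group. At an unadjusted p under 0.05, 4 of 38 passed, as did 5.31% of rows. At 0.85 Hoxd13 was 6.23, 6.44, 6.48, 6.55 and 6.31, a difference of 0.29, and Hoxc4 (0.28), Hoxa6 (0.19) and Hoxc12 (0.12) followed (2 of 38, 4.86% of rows). Hoxd13 was a dim gene.

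**Figure D5:**
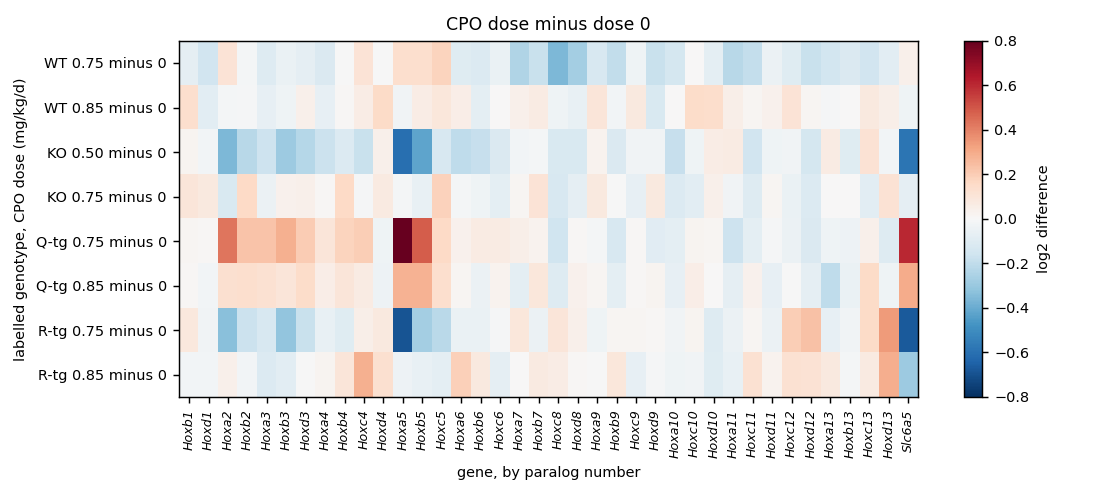
Log2 difference of each member (columns, ordered by paralog number) in the 8 contrasts of a CPO dose against dose 0 (rows). Of the 12 genes of numbers 2 to 5, at least 10 share a colour in 4 of the 8 rows, red in Q-tg at 0.75 and 0.85 and blue in KO at 0.50 and R-tg at 0.75, and the other 4 rows are mixed. Over all genes of the table, 52.5%, 58.7%, 50.2% and 41% of values lay above 0 in these 4 contrasts, in this order. The 12 genes are correlated. In each row 0 of 38 passed.

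The response to 0.75 mg/kg/d was also compared between the transgenic labels. Between R-tg and Q-tg it differed by -1.28 for Slc6a5 (SE 0.43), -1.49 for Hoxa5 (0.60) and -0.76 for Hoxa2 (0.26), with a limma adjusted p = 0.840 for each. At an unadjusted p under 0.05, 9 of 38 members passed, where 5.81% of rows did, and 7 of the 9 were lower, as were 4.61% of rows. The other 2 were Hoxd12 (0.35), which again rests in part on R-tg at 0 replicate 1, and Hoxd13 (0.44). Members that move together do not count as separate evidence. Between R-tg and WT, 7 of 38 were higher and 0 lower, all of numbers 7 to 13, where 5.27% of rows were higher and 7.76% lower. Genes of these numbers followed the lower quartile of the array. Its mean was 6.36 at dose 0 and 6.28 at 0.75 in WT, and 6.35 and 6.37 in R-tg. The part of the lower quartile in this count was not tested. The response to 0.75 in KO and in Q-tg against WT each gave 2 of 38, with 7.59% and 2.23% of rows. At 0.85 the responses of Q-tg and R-tg against WT each gave 0 of 38 (1.87% and 4.76% of rows), and that of R-tg against Q-tg gave Hoxa13 (0.28) and Hoxd13 (0.32), with 8.2% of rows. Averaged over the 4 genotype labels, 0.75 mg/kg/d gave Hoxa11 (-0.12) and Hoxc8 (-0.14), where 4.08% of rows passed, and 0.85 over 3 labels gave 0 of 38, where 1.67% did. Genotype labels at dose 0 gave 0 of 38 at an unadjusted p under 0.05 for each of KO, Q-tg and R-tg against WT, where 3.25%, 1.66% and 3.93% of rows passed. R-tg against Q-tg gave Hoxd13 (-0.21) and Hoxd12 (-0.23), where 5.43% did. The Hoxd13 values of R-tg against Q-tg all use the R-tg arrays at dose 0, which had the lowest group mean of this gene.

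Hoxa5 and Slc6a5 are also given by the mouse Pon1 signal. The 15 low arrays had Hoxa5 signals from 5.78 to 7.15 with a median of 6.44, and the 45 high arrays from 5.78 to 8.28 with a median of 7.27. Slc6a5 ran from 6.93 to 7.90 (median 7.45) on the low arrays and from 6.94 to 8.66 (median 8.14) on the high ones. The ranges overlap, and the highest arrays of both genes were high in Pon1. These groups rest on a measured signal and not on the labels, so no test was made.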

How the data were processed

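The deposited values are log2 signals, 28858 rows on 60 arrays. The authors made them by RMA with oligo in R 2.15.1, per the submitters' processing notes, and they were not normalized again. Gene symbols came from GEO's platform annotation (1 symbol for 21789 rows, several for 1621, none for 5448), and promoters and gene spans from RefSeq tables of GRCm38.p6. RMA leaves a background level in silent genes, so a low log2 signal understates fold changes. Precision is set by the 5 arrays of a group.

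Tests between groups used limma 3.58.1 (R 4.3.3), in 1 model of the 12 labelled groups over 60 arrays with 21 contrasts and an F test. Association with Hoxa5 used the same groups as terms. All tests were 2-sided, with Benjamini-Hochberg adjustment over all rows with 1 symbol and a threshold of 0.05. Pearson and Spearman correlations used values centred on groups, with 100000 permutations within groups. Scripts were tested on simulated data.

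The members, the 16 gene lists and the choice of Hoxa5 were made with earlier results of these data known. Named were the 10 members of largest standard deviation within groups, the 4 of smallest p in each CPO contrast, the 15 highest and 5 lowest genes by r with Hoxa5 (predicted and small RNA genes left out), up to 4 genes of a list by absolute r with Hoxa5, and Pon1. Other genes named beside a count of 5 or fewer were chosen after their values were seen. Tried as alternatives were a trended robust variance prior, weights for arrays, rows above the dim level alone, all rows, centring on array medians, the lower quartile as covariate, no arrays against their Pon1 label, the replicate number, fewer groups in the fit, and leaving out each array.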

Additional observations from a re-analysis of the deposited data

Results flagged for a closer look

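The 10 members with the largest standard deviation within groups were checked for single arrays far from the others of their group, 120 groups of 5 arrays in all. Chance marks about 1 in 20 groups, or about 6 of them, and 2 were found, both for Hoxd3. In R-tg at 0.75 mg/kg/d replicate 1 stood at 7.41, with the next array at 6.90 and the lowest at 6.71. In WT at dose 0 replicate 5 stood at 7.42, with the next at 7.03 and the lowest at 6.89. Both arrays also had the highest Hoxa5 signal of their group, 8.05 and 8.18.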

How the results depend on the processing

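The count of 0 members in the CPO, genotype, interaction and F comparisons was the same in every alternative run, the 60 fits without 1 array each included. The count of 13 members associated with Hoxa5 ran from 12 to 14 when 1 array was left out, and was 7 among the rows above the dim level, a filter that keeps 12 of the 38 members. It was 14 with array weights or the lower quartile as covariate and 12 without the arrays against their Pon1 label. Over all rows the count of 848 was less stable: 1551 with the lower quartile as covariate, 1400 with array weights, 1341 without group terms, 143 without the arrays against their Pon1 label, and 589 to 1660 without 1 array, the highest without WT at 0.75 replicate 1. Leaving out those arrays, a choice for the gene lists made after seeing the data, gave 3 forebrain genes in place of 9 and 0 choroid plexus genes in place of 3. Regressing out the lower quartile, an alternative chosen after seeing the data, moved the median correlation of equal paralog numbers 7 to 13 from 0.48 to 0.0030, and that between numbers 2 to 5 and 7 to 13 from 0.28 to -0.025. Leaving out 1 array gave medians of 0.74 to 0.76 for equal and 0.72 to 0.74 for unequal numbers among 2 to 5, 0.46 to 0.54 for equal numbers among 7 to 13, and 0.24 to 0.32 between the sets.

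Of 32 named log2 differences in 619 refits, 2 changed sign: Hoxb4 in KO at 0.75 (-0.032 without the arrays against their Pon1 label) and Hoxa10 in KO at 0.75 (0.0073 without KO at 0.75 replicate 1, and -0.16 at the other end). Their cause was not tested. Leaving out 1 array moved 15 of the 32 by over 1.5 times, array weights 4, the lower quartile as covariate 5, and leaving out the arrays against their Pon1 label 9. Same-numbered arrays had a median r of -0.01 over 330 pairs, and arrays of different number 0.007 over 1320 pairs. No pairing by replicate number was seen in these values. With the replicate number as a block, 12 members were associated with Hoxa5 and 0 passed in the group comparisons. Hoxa5 has 1 row, so a mean over its rows could not be tried, and scanner values were not used here. Dim members limit what can be seen: 26 of 38 had means in the range of silent genes.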

Other observations

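The link to Hoxa5 can also be read within labels. For Hox genes of numbers 2 to 5 the median r with Hoxa5, with group means removed, was 0.71 in WT, 0.69 in KO, 0.80 in Q-tg and 0.79 in R-tg, over 15 arrays each. For the 20 genes of numbers 7 to 13 it was -0.18 in WT, -0.11 in KO, 0.09 in Q-tg and 0.37 in R-tg. Over the 20 arrays at dose 0 it was 0.30, and over the 40 arrays with CPO -0.03, against 0.78 and 0.75 for numbers 2 to 5. Differences between these values were not tested.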
